A study of Mus musculus with 6 samples.

Results

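The bile acid synthesis and farnesoid X receptor (FXR) control genes described here are Cyp7a1, Cyp8b1, Cyp27a1, Cyp7b1, Akr1d1, Baat, Nr1h4, Nr0b2, Fgfr4 and Klb. They were taken by gene symbol, and all 10 were found among the 46095 symbols of the deposited table. RNA-seq was done on liver material labelled as hepatocytes from C57BL/6 mice. All mice received a high-fat diet (HFD) for 26 weeks, and 3 libraries came from wild type mice (HFD-WT) and 3 from mice lacking ARRB1 (HFD-ARRB1-KO). ARRB1 is beta-arrestin 1, an adaptor protein of G protein-coupled receptors. The genotype field reads ARRB1-/- for knockout replicate 1 but ARRB2-/- and ARRB3-/- for replicates 2 and 3, so groups were taken from the sample titles. The labels do not give the tissue in which the gene was deleted, or the sex, the time of day or the feeding state at collection, and the diet was shared by both groups. The comparison asks whether expression of the pathway differed with loss of ARRB1 on this diet.

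Bile acids are made from cholesterol in hepatocytes. In the classical route CYP7A1 hydroxylates cholesterol first, and CYP8B1 then adds the hydroxyl group that turns a precursor towards cholic acid. In the alternative route CYP27A1 oxidises the side chain and CYP7B1 hydroxylates the resulting oxysterols. AKR1D1 reduces the ring system, and BAAT joins the finished acid to taurine or glycine. Bile acids activate FXR (Nr1h4), which induces the repressor SHP (Nr0b2). In the ileum FXR also induces the hormone FGF15, which acts on the hepatocyte through the receptor FGFR4 and its co-receptor beta-klotho (Klb) and represses Cyp7a1.

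The promoters of Nr0b2 and Cyp8b1 are shown because these genes stand at the repressor and the target end of that loop. Both are the 250 bases before the RefSeq start on GRCm38.p6, given 5′ to 3′ on the strand of the gene. Capitals mark matches, on either strand, to TCAAGG (the core of sites of the nuclear receptor LRH-1), to AGGTCA (a nuclear receptor half-site) or to TATAAA.

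Nr0b2, chr4:133553126-133553375, plus strand: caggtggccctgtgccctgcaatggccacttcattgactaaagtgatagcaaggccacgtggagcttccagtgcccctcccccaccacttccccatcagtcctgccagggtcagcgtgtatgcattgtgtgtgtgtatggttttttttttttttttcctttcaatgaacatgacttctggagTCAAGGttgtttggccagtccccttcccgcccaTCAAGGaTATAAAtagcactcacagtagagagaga

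Cyp8b1, chr9:121916306-121916555, minus strand: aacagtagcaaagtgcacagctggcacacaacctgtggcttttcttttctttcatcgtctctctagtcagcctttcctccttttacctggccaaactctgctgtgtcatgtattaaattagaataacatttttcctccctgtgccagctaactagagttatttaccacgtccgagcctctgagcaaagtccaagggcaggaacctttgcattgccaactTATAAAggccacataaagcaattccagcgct

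The Nr0b2 window held 2 TCAAGG matches, which begin 68 and 35 bases before the start, and a TATAAA match 28 bases before it. Cyp8b1 held a TATAAA match beginning 31 bases before the start and no exact match to the other motifs. Its window does hold CCAAGG, which differs from TCAAGG in the first base. Variants of the motifs were not searched, so the absence of an exact match does not show the absence of a site. Promoter sequences were at hand for 7 of the 10 genes, all but Cyp7a1, Cyp7b1 and Baat. Among these 7, TCAAGG was found in Nr0b2 and Akr1d1, AGGTCA in Akr1d1 and Nr1h4, and TATAAA in Cyp8b1 and Nr0b2. Of 27025 promoters of the same length, 12.5% held TCAAGG, 13.8% AGGTCA and 13.0% TATAAA. Exact inverted AGGTCA repeats spaced by 1 base (IR-1, the best known FXR site) were in 2 of the 27025 and in none of the 7. An exact match is so rare that its absence from the 7 says nothing about FXR sites in them. Imperfect repeats and sequence further upstream were not searched. No binding or promoter activity was measured in this study, so these matches describe sequence only.

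Values are FPKM (fragment counts scaled by transcript length and library size), which set levels per length of transcript. Whole reads recovered from the FPKM steps put knockout replicate 1 at 0.397 of the depth of the deepest library, knockout replicate 2, and the other libraries at 0.796 to 0.950. Arrb1 measured 3.86, 22.7 and 16.9 FPKM in wild-type replicates 1, 2 and 3. It measured 0.918, 1.05 and 1.16 FPKM in the libraries labelled knockout, without overlap. Wild-type replicate 1 lay closer to the knockout libraries than to the other wild-type libraries, and the cause of its low value was not tested. Hepatocyte markers were abundant throughout, with Alb between 27700 and 35500 FPKM, but markers of other liver cells were also present. Their lists are given as summed FPKM. Kupffer cell and macrophage markers summed to 260 to 281 in wild type and 293 to 410 in knockout (1 of 10 tested lower, Vsig4), and endothelial markers to 110 to 128 and 126 to 144 (2 of 9 higher, Lyve1 and Pecam1). The higher macrophage sum came with Lyz2, which averaged 62.1 FPKM in wild type against 120 FPKM in knockout and was not called, whereas the Kupffer cell gene Clec4f averaged 56.1 against 49.2 FPKM. Lyz2 and Clec4f were picked after their values were seen, and the Clec4f groups overlapped. Of the 10 markers, 4 had knockout values all above wild type, Lyz2 among them, and 2 all below. Over all tested genes these shares were 23.4% and 7.81%. Other Kupffer cell genes lay on both sides, with Timd4 at 3.9 FPKM in wild type and 2.5 in knockout, and Cd5l at 76.8 and 82.0. Stellate cell markers summed to 130 to 148 in wild type and 151 to 231 in knockout (2 of 10 higher, Col1a1 and Col3a1). Cholangiocyte markers summed to 36 to 68.3 and 41.9 to 105, and lymphocyte and neutrophil markers to 4.06 to 8.33 and 6.43 to 11.2. None of the 5 and 3 tested genes of these lists was called by limma or voom, and none had an unadjusted p under 0.05. Hepatocyte markers summed to 73900 to 79100 in wild type and 64600 to 74000 in knockout, with 3 of 17 lower (Cps1, Serpina1c and Tat) and a median log2 difference of -0.23, which was 0.035 when libraries were quantile normalized. Of these marker calls, those of Cps1 and Lyve1 were made in every fit run. Leaving out 1 library gave 1 hepatocyte call in 5 of 6 cases, no Vsig4 call unless the library was wild-type replicate 3, and no stellate call when it was wild-type replicate 2. In such material, fewer cells of a type and less RNA per cell cannot be told apart, and the part of cell composition in the values below was not tested.

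All 10 genes passed the filter of a mean of at least 1 FPKM. By limma, 2 were called lower in knockout at an adjusted p under 0.05 (Cyp7b1 and Fgfr4) and none higher. Among the 10633 genes tested, 1.6% were called lower and 5.3% higher. With wild-type replicate 2 or knockout replicate 2 left out, no member was called lower, and over all genes the lower calls went from 170 to 54 and 63 and the higher calls from 564 to 117 and 94. Leaving out wild-type replicate 3 gave 3 lower calls (Cyp7a1 joined them), and leaving out any other library gave 1, Cyp7b1. For the count of 0 higher genes, no member with a higher estimate had an unadjusted p under 0.05, and limma's voom on recovered reads also called none. The groups did not overlap for 5 of the 10 genes, all with the lower values in knockout, against 7.81% of tested genes in that direction. No member had knockout values all above wild type, against 23.4% of tested genes. The estimate was below 0 for 8 of the 10, with a median log2 fold change of -0.28, beside 36.4% and a median of 0.07 over all genes tested. The hepatocyte markers leaned the same way. Of these 17, 7 had knockout values all below wild type, 1 had them all above, and 12 had estimates below 0 (median -0.23). When libraries were quantile normalized, the medians were -0.26 for the 10 genes and 0.035 for the hepatocyte markers. As deposited, 76.8% of all called genes were higher in knockout. That share was 60.9% with median-of-ratios scaling, 64.5% when libraries were quantile normalized and 84.7% with TPM. Under each of these the same 2 members were called lower and none higher.

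**Figure D1:**
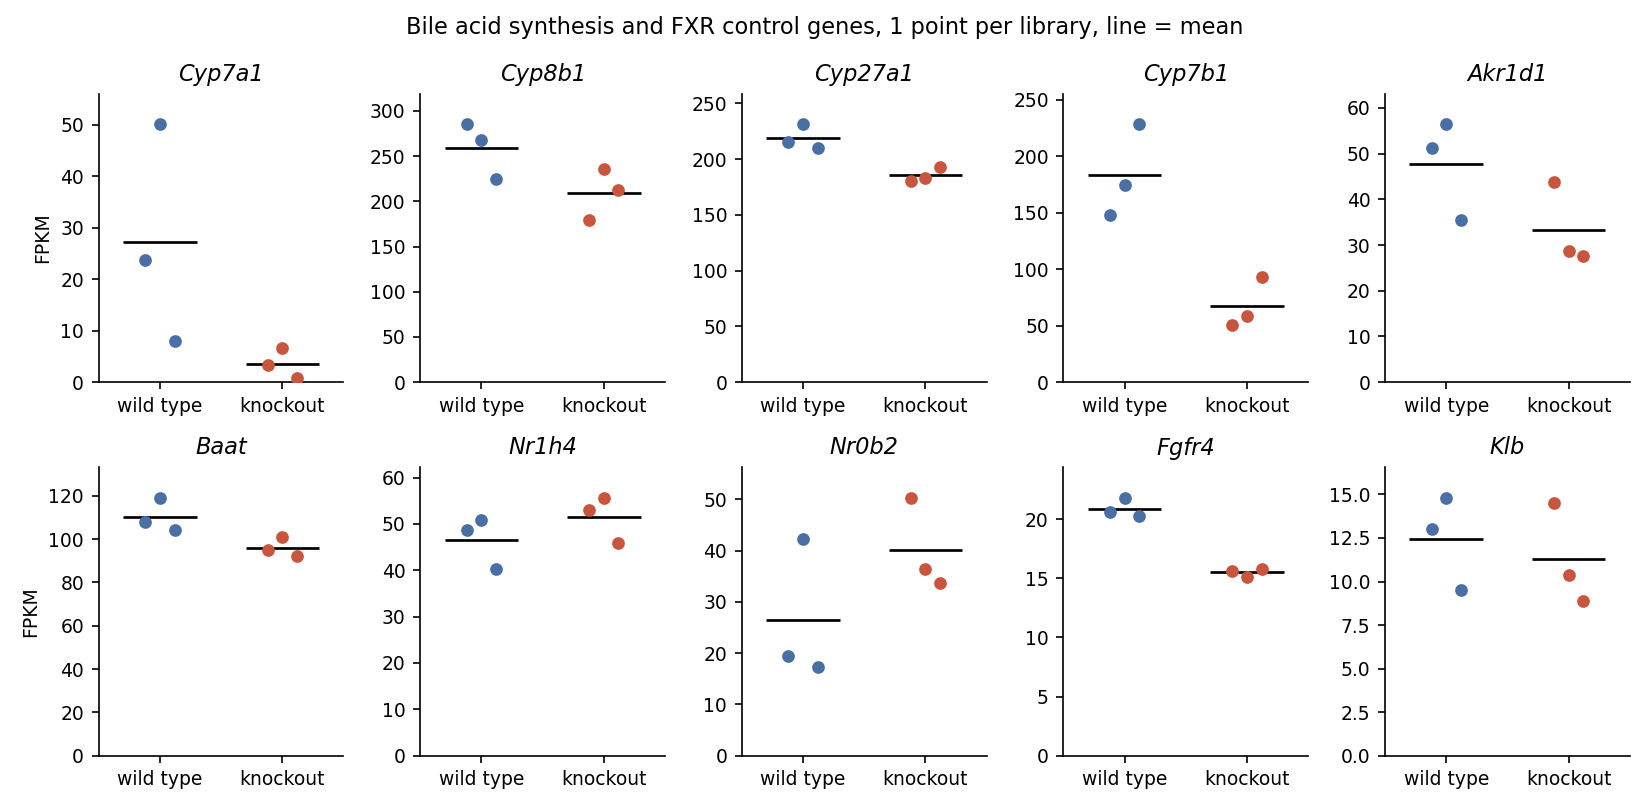
FPKM of each of the 10 genes (vertical axes from 0, with their own scales) in the 3 wild-type and 3 knockout libraries. Each point is a library and each line a group mean. Cyp7a1, Cyp27a1, Cyp7b1, Baat and Fgfr4 show no overlap between groups, and Cyp7a1 in wild type has the widest spread within a group relative to its mean.

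Cyp7a1, the rate-limiting enzyme of the classical route (chromosome 4, 6265612 to 6275633, minus strand, GRCm38), had the largest estimate of the 10 genes and did not pass the test. Wild-type replicates 1, 2 and 3 held 23.7, 50.1 and 8.03 FPKM, against 3.26, 6.57 and 0.904 FPKM in the knockout replicates in the same order. Each knockout library was below each wild-type library, but wild-type replicate 3 lay closer to knockout replicate 2 than to wild-type replicate 1. The means were 27.3 ± 21.3 FPKM in wild type against 3.58 ± 2.85 FPKM in knockout (SD, n = 3 each), a ratio of 7.62. On the log2(FPKM + 1) scale, the difference was -2.51 with a 95% interval of -4.07 to -0.95 (limma, adjusted p = 0.0674). The estimate ran from -3.17 without wild-type replicate 3, where it was called (limma, adjusted p = 0.0377), to -1.92 without wild-type replicate 2 (0.184).

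Counting error was small beside this spread. The lowest value rested on 110 reads, with an exact 95% Poisson interval of 0.743 to 1.09 FPKM, and the highest on 5836 reads, with 48.8 to 51.4 FPKM. The intervals of the 6 libraries did not touch one another. These intervals cover counting error only. Cyp7a1 is known for a strong daily rhythm and for its response to feeding, and transcripts of the circadian clock differed between the same libraries. Of 13 tested clock genes, Dbp and Nr1d1 were higher and Cry1 and Arntl lower in knockout. Dbp, which encodes a clock-controlled activator of Cyp7a1, measured 1.52, 0.491 and 0.767 FPKM in wild type, against 6.21, 4.71 and 3.37 in knockout (limma, adjusted p = 0.0133), and its wild-type mean alone was below the filter. Nr1d1, the repressor REV-ERB-alpha, went from 27.3 ± 0.160 to 36.8 ± 3.43 FPKM, and Arntl, the activator BMAL1, from 6.69 ± 0.396 to 4.55 ± 0.608 FPKM (SD, n = 3 each). Cry1, a repressor of the clock, went from 9.93 ± 0.822 to 6.16 ± 0.405 FPKM. Of the uncalled clock genes, Nr1d2 (0.55), Nfil3 (-0.47) and Per2 (-0.33) had the smallest p, given as log2 differences. With wild-type replicate 2 or knockout replicate 2 left out, no clock gene was called. Leaving out wild-type replicate 1 or 3 or knockout replicate 1 gave 1 higher and 1 lower call, and leaving out knockout replicate 3 gave 2 and 1. With no filter none was called. Nr1d1 and Arntl were each called at an adjusted p of 0.0405 (limma). Arntl lost its call whichever library was left out, with TPM and with the replicate number as a block. With 1 library left out, Nr1d1 was called only without knockout replicate 3. It also lost its call with median-of-ratios or quantile scaling, without trend and with the block. Dbp and Cry1 lost theirs only without a library numbered 2 and with no filter. The part of collection time in the Cyp7a1 values was not tested.

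Cyp8b1, the sterol 12-alpha-hydroxylase (chromosome 9, 121914356 to 121916305, minus strand), had the highest mean level per length of the 10 transcripts in both groups. It measured 285, 268 and 225 FPKM in wild type, against 179, 236 and 213 in knockout. Knockout replicate 2 lay above wild-type replicate 3, so the groups overlapped. The log2 difference was -0.31 with an interval of -0.63 to 0.00 (limma, adjusted p = 0.2).

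In the alternative route, Cyp7b1 fell and Cyp27a1 showed a small difference that did not pass the test. Cyp7b1, the oxysterol 7-alpha-hydroxylase (chromosome 3, 18071950 to 18243338, minus strand), measured 148, 174 and 228 FPKM in wild type, against 51.0, 58.3 and 92.6 in knockout. The highest knockout library was well below the lowest wild-type library. The means were 183 ± 40.7 and 67.3 ± 22.2 FPKM (SD, n = 3 each), which is 2.72-fold lower in knockout. The log2 difference was -1.46 ± 0.238 (SE; limma, adjusted p = 0.017). The call was lost without wild-type replicate 2 (limma, adjusted p = 0.0692), without knockout replicate 2 (0.0736) and with no filter on low genes (0.0815), at differences of -1.48, -1.38 and -1.46. Liver Cyp7b1 is known to be male-biased in mice, and the labels give no sex.

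Cyp27a1, the mitochondrial sterol 27-hydroxylase (chromosome 1, 74713574 to 74737892, plus strand), measured 215, 231 and 210 FPKM in wild type, against 180, 183 and 193 in knockout. The groups did not overlap, and the means of 219 ± 11.1 and 185 ± 6.65 FPKM (SD, n = 3 each) differed by 1.18-fold. The log2 difference was -0.24 with an interval of -0.44 to -0.04 (limma, adjusted p = 0.136). Macrophages also express this enzyme. The macrophage markers given above were not all on the same side, and their part in the Cyp27a1 values was not tested.

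For the shared later steps, no difference was called. Akr1d1, the steroid 5-beta-reductase (chromosome 6, 37530173 to 37568815, plus strand), measured 51.2, 56.4 and 35.4 FPKM in wild type, against 43.9, 28.6 and 27.6 in knockout. Knockout replicate 1 was above wild-type replicate 3, and the log2 difference of -0.51 had an interval of -1.02 to 0.01 (limma, adjusted p = 0.202). Baat, which conjugates bile acids (chromosome 4, 49489422 to 49506557, minus strand), measured 108, 119 and 104 FPKM in wild type, against 94.8, 101 and 92.1 in knockout. Its groups did not overlap, but they were separated by a narrow margin, and the log2 difference was -0.20 with an interval of -0.41 to 0.01 (limma, adjusted p = 0.217).

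The FXR gene and its target SHP were the only members with estimates above 0, and neither was called. Nr1h4 (chromosome 10, 89454234 to 89533585, minus strand) measured 48.6, 50.8 and 40.2 FPKM in wild type, against 53.0, 55.6 and 45.8 in knockout. Its groups overlapped, and the log2 difference was 0.14 with an interval of -0.13 to 0.42 (limma, adjusted p = 0.487). Nr0b2 (chromosome 4, 133553376 to 133556536, plus strand), whose promoter is printed above, measured 19.5, 42.3 and 17.4 FPKM in wild type, against 50.3, 36.4 and 33.6 in knockout. Wild-type replicate 2 lay inside the knockout range, and the other two wild-type libraries lay below it. The log2 difference was 0.68 with an interval of -0.05 to 1.41 (limma, adjusted p = 0.226). Without wild-type replicate 2 it was 1.06 and was called (limma, adjusted p = 0.0487), and without wild-type replicate 3 it was 0.44 (0.432). The library with the most Nr0b2 among the wild-type libraries, replicate 2, was also the one with the most Cyp7a1. In knockout, replicate 1 had the most Nr0b2 and replicate 2 the most Cyp7a1. Both observations were made after the values were seen.

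Of the 2 genes of FGF15 reception, Fgfr4 fell and Klb did not pass the test. Fgfr4 (chromosome 13, 55152640 to 55168759, plus strand) measured 20.6, 21.8 and 20.3 FPKM in wild type, against 15.6, 15.1 and 15.8 in knockout. Both groups were tight, and the gap between them was larger than the range within either. The means were 20.9 ± 0.788 and 15.5 ± 0.349 FPKM (SD, n = 3 each), which is 1.35-fold lower in knockout, and the log2 difference was -0.40 ± 0.0765 (SE; limma, adjusted p = 0.0252). With 1 library left out the difference stayed between -0.42 and -0.38. The call held without wild-type replicate 3 (limma, adjusted p = 0.0493) and was lost when any other library was left out, with adjusted p-values of 0.0769 and 0.0916 for wild-type replicates 1 and 2 and 0.0515, 0.0997 and 0.0672 for knockout replicates 1, 2 and 3.

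Klb (chromosome 5, 65348314 to 65384007, plus strand) measured 13.0, 14.8 and 9.5 FPKM in wild type, against 14.5, 10.4 and 8.90 in knockout, with nearly complete overlap. The log2 difference was -0.13 with an interval of -0.60 to 0.33 (limma, adjusted p = 0.723), and its sign turned without knockout replicate 3, to 0.011.

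**Figure D2:**
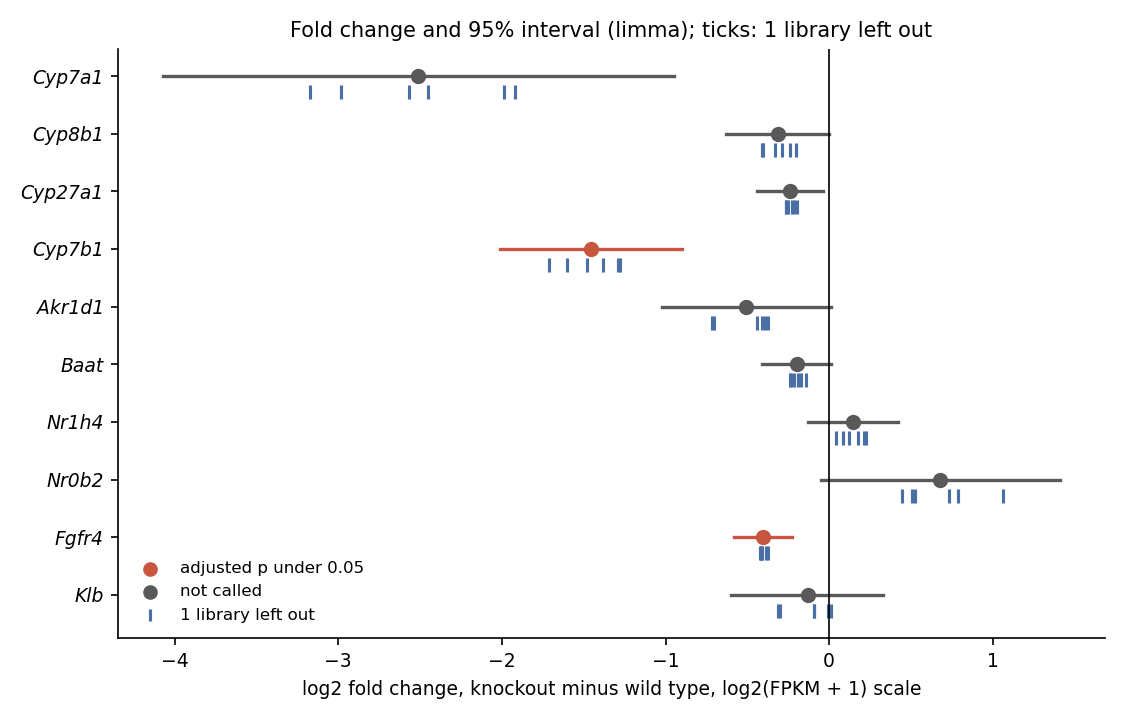
Log2 fold change of each gene, knockout minus wild type on the log2(FPKM + 1) scale (horizontal axis), with its 95% interval from limma. Red marks the 2 called genes, Cyp7b1 and Fgfr4, and ticks give the estimate with each library left out in turn. The Cyp7a1 interval is the widest, and a tick of Klb lies above 0.

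Ranked by mean level per length in wild type, the order was Cyp8b1 (260 FPKM), Cyp27a1 (219), Cyp7b1 (183), Baat (110), Akr1d1 (47.6), Nr1h4 (46.5), Cyp7a1 (27.3), Nr0b2 (26.4), Fgfr4 (20.9) and Klb (12.4). Cyp8b1 and Cyp27a1, Cyp27a1 and Cyp7b1, Akr1d1 and Nr1h4, and the neighbours from Nr1h4 to Fgfr4 had overlapping values across the 3 libraries. In knockout, Cyp7b1 (67.3 FPKM) ranked below Baat (95.9), and Akr1d1 (33.4) below Nr1h4 (51.4) and Nr0b2 (40.1). Cyp7a1 (3.58) ranked last. The lowest read numbers behind a member were 110 for Cyp7a1 and 675 for Nr0b2, and the highest were 18547 for Cyp8b1. No exon of the 10 genes overlapped an exon of another gene in GENCODE, and none of the 10 lies on chromosome 7, which carries Arrb1.

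Ratios of 2 genes within a library do not depend on how that library was scaled, and 6 such ratios were compared. For the classical route, the ratio of Cyp8b1 to Cyp7a1 was 12.1, 5.34 and 28.1 in wild type and 54.8, 35.9 and 236 in knockout. The ratio of Cyp27a1 to Cyp7a1, which sets the entry enzymes of both routes side by side, was 9.09, 4.62 and 26.2 in wild type and 55.3, 27.9 and 213 in knockout. Neither ratio overlapped between groups, and the geometric means differed by 6.35-fold and 6.69-fold, or 2.67 and 2.74 on the log2 scale. With 1 library left out, the log2 differences ran from 1.86 and 1.93 (without knockout replicate 3) to 3.27 and 3.41 (without wild-type replicate 3). In wild type, Cyp7a1 was thus the less abundant entry enzyme in each library, and more so in each knockout library.

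Within the alternative route, the ratio of Cyp7b1 to Cyp27a1 was 0.686, 0.754 and 1.08 in wild type and 0.283, 0.319 and 0.480 in knockout, a 2.35-fold difference without overlap. An exact permutation test (two-sided) gave p = 0.1 for each of these 3 ratios, the lowest value possible with 3 against 3 libraries, and 0.2 after Benjamini-Hochberg adjustment over the 6. The ratio of Cyp7b1 to Cyp7a1 overlapped between groups, with 6.24, 3.48 and 28.4 in wild type and 15.7, 8.88 and 102 in knockout (exact permutation p = 0.4).

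The ratio of Nr0b2 to Nr1h4, the repressor against the receptor that induces it, was 0.401, 0.831 and 0.433 in wild type and 0.948, 0.656 and 0.734 in knockout. The ratio of Klb to Fgfr4 was 0.630, 0.678 and 0.468 in wild type and 0.930, 0.689 and 0.563 in knockout. Both overlapped between groups (exact permutation p = 0.3 and 0.4, and 0.4 for each when adjusted).

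**Figure D3:**
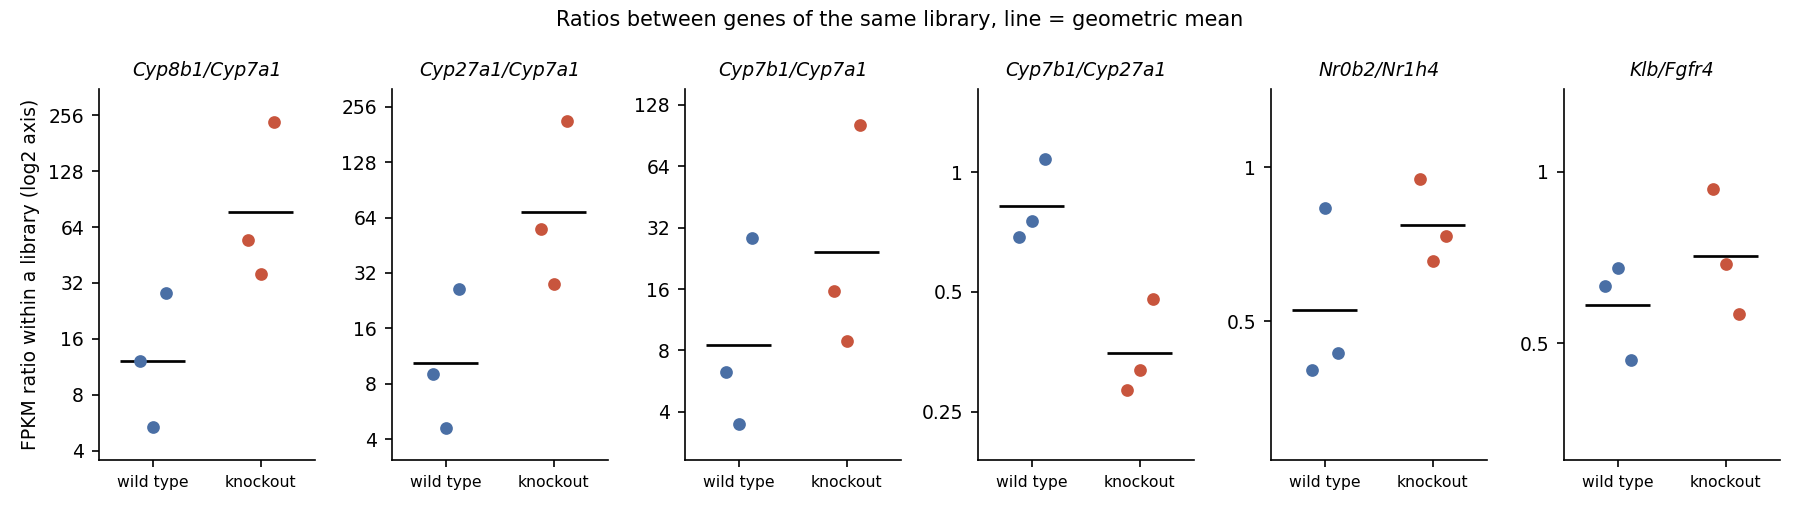
FPKM ratio of 2 genes within each library (vertical log2 axes with their own scales) for wild type and knockout, 1 point per library, with lines at geometric means. Cyp8b1/Cyp7a1, Cyp27a1/Cyp7a1 and Cyp7b1/Cyp27a1 show no overlap between groups, and the other ratios do.

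Among the genes tested, the patterns closest to that of Cyp7b1 over the 6 libraries, by Euclidean distance between centred log2(FPKM + 1) values, were those of Gm3839 (distance 0.324), Mup3 (0.353) and Serpine2 (0.479). Mup3, of the major urinary protein family, which includes near-identical copies, averaged 493 and 186 FPKM in the wild-type and knockout groups. Whether reads shared within the family affect its value was not tested. Serpine2, a protease inhibitor gene, measured 17.9 and 7.25 FPKM. The patterns closest to that of Fgfr4 were those of the lysosomal protease gene Ctsl (distance 0.055), the complement factor H-related gene Cfhr3 (0.074) and the plasma kallikrein gene Klkb1 (0.102). Ctsl averaged 181 and 138 FPKM in the same order.

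Other enzymes and carriers of bile acid synthesis moved in both directions. Of 18 listed genes, 16 were tested, of which 3 were higher and 2 lower in knockout (median log2 difference 0.19). Cyp2c70, the enzyme that makes muricholic acids in mice, fell from 254 ± 24.2 to 113 ± 7.44 FPKM (SD, n = 3 each; limma, adjusted p = 0.00209), although it belongs to a family with close copies. Stard4, a cholesterol carrier, fell from 31.0 ± 1.40 to 13.4 ± 2.35 FPKM. The 3 higher genes act in peroxisomal side-chain shortening or the same peroxisomal pathway of fatty acids. Hsd17b4 rose from 232 ± 23.0 to 356 ± 11.7 FPKM, Acaa1b from 503 ± 83.5 to 1085 ± 274 FPKM, and the thioesterase gene Acot8 from 6.09 ± 0.271 to 8.33 ± 0.107 FPKM. Acaa1b has a close copy, so its value is uncertain. The uncalled genes with the smallest p were Cyp39a1 (log2 difference 0.55), Slc27a2 (0.38) and Abcd3 (0.27). Hsd3b7, which acts between CYP7A1 and AKR1D1, measured 312 ± 25.5 FPKM in wild type against 314 ± 3.31 FPKM in knockout, and was picked after its values were seen. Cyp2c70 and Stard4 were called lower in every fit run. The count of 3 higher genes dropped to 0 when wild-type replicate 2 or knockout replicate 2 was left out, with no filter or with the replicate number as a block. It was 2 when any other library was left out, but the genes were not always among the 3 named. Without wild-type replicate 3, Hsd17b4 kept its call, and Acaa1b (limma, adjusted p = 0.0528) and Acot8 (0.0683) did not. Acot8 lost its call whichever library was left out, and with median-of-ratios or quantile scaling. With TPM there were 6 higher calls.

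Of 23 listed regulators of the pathway, 18 were tested and 1 was called. S1pr2, a receptor for sphingosine 1-phosphate that also responds to conjugated bile acids, rose from 1.74 ± 0.383 to 4.12 ± 0.794 FPKM (SD, n = 3 each; limma, adjusted p = 0.0178). That call was lost when either library numbered 2 was left out and with no filter. The median log2 difference of the 18 was 0.10. None was called lower by limma or voom, and 3 with lower estimates had an unadjusted p under 0.05. The uncalled regulators with the smallest p were the xenobiotic receptor gene Nr1i2 (log2 difference 0.35), the corepressor gene Ncor1 (0.29) and the heparan sulfate carrier gene Sdc1 (-0.28). The hormone gene Fgf15 was listed at 0 in all 6 libraries, as was Fabp6, another gene of the ileum.

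Further FXR targets showed no common direction. Of 15 listed, Nr0b2 among them, 12 were tested, 2 were higher and none lower (median log2 difference 0.28). The 2 were Abcb4, the phospholipid exporter of bile, which rose from 99.5 ± 8.41 to 168 ± 26.3 FPKM (SD, n = 3 each; limma, adjusted p = 0.0221), and Aifm2, which rose from 5.49 ± 1.02 to 8.51 ± 0.718 FPKM. Abcb11, the bile salt export pump and a direct FXR target, measured 134 ± 9.20 FPKM in wild type against 134 ± 16.6 FPKM in knockout, with a log2 interval of -0.27 to 0.26, and was picked after its values were seen. Fetub (log2 difference -0.44), Sqstm1 (0.43) and Sdc1 were the uncalled targets with the smallest p. For the count of 0 lower targets, voom called 1 lower, and 3 targets with lower estimates had an unadjusted p under 0.05. Leaving out wild-type replicate 1 or 2 or knockout replicate 1 gave 1 higher call, which was Aifm2, Nr0b2 and Abcb4 in that order. Leaving out knockout replicate 2 or 3, or the filter, gave 0. With 1 library left out, Aifm2 was called only without wild-type replicate 1. Abcb4 was called only without wild-type replicate 3 or knockout replicate 1. Aifm2 also lost its call with median-of-ratios or quantile scaling, without trend and with the block.

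Of 12 listed genes of bile acid transport and bile formation, 10 were tested, 3 were higher and 1 lower (median log2 difference 0.09, and -0.0071 with median-of-ratios scaling). Abcc3, an exporter of the sinusoidal membrane, rose from 43.3 ± 7.90 to 102 ± 10.2 FPKM (SD, n = 3 each; limma, adjusted p = 0.00575), beside Abcb4 and the uptake carrier gene Slco1a4. Slco1a4 rose from 5.48 ± 0.251 to 10.3 ± 2.88 FPKM (limma, adjusted p = 0.0491). Its relative Slco1a1 fell from 117 ± 27.5 to 27.1 ± 21.1 FPKM (limma, adjusted p = 0.0377). These 2 are related genes, and reads shared between them could make both values uncertain, which was not tested. Atp8b1 (log2 difference -0.36), Slc10a1 (-0.10) and Slc51b (0.16) were the uncalled genes of this list with the smallest p. Abcb4 and Atp8b1 move phospholipids, not bile acids. Leaving out wild-type replicate 1 or 2 or knockout replicate 2 gave 1 higher call, and the lower call held only without knockout replicate 3 among the 6 libraries and was narrowly lost with the block (limma, adjusted p = 0.05 when rounded). The Slco1a4 call was lost with median-of-ratios or quantile scaling, without trend and with no filter. With 1 library left out, it too held only without knockout replicate 3. Abcc3 was called in every fit run.

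**Figure D4:**
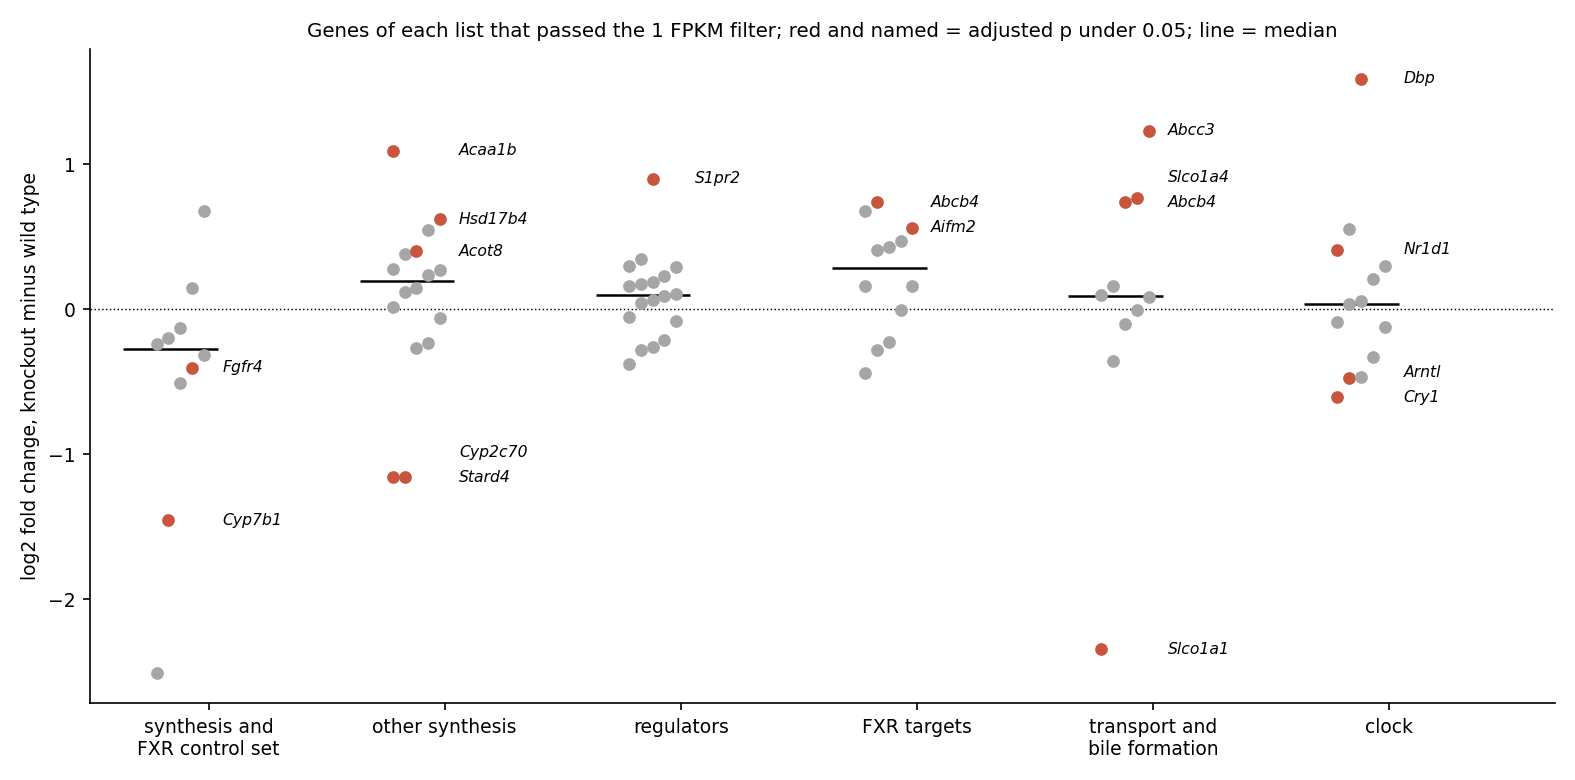
Log2 fold change, knockout minus wild type (vertical axis), of every tested gene in the 10-gene set, the other synthesis genes, regulators, FXR targets, genes of transport and bile formation, and clock genes. Red and named points were called by limma, grey points were not, and lines are list medians, which run from -0.28 in the 10-gene set to 0.28 among FXR targets. Genes on 2 lists appear in both.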

How the data were processed

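Per the labels' protocols, Trizol was used for extraction, and 1 ug of total RNA went into each Illumina TruSeq library. The authors deposited FPKM, 1 value per gene symbol and library. The submitters' processing notes name HISAT2, Bowtie 0.12.2 and the builds mm8 and mm10. The sources used here do not give their roles, the annotation, or how strand and shared reads were treated. Positions come from GENCODE vM21 (GRCm38, the assembly behind mm10) by gene symbol.

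A linear model with genotype as its only term was fitted to log2(FPKM + 1) by limma 3.58.1 (R 4.3.3), with trended eBayes moderation and two-sided tests. It covered the 10633 genes whose mean reached 1 FPKM. P-values were adjusted over these genes by the Benjamini-Hochberg method and called under 0.05. Fold changes on this scale understate low genes. Whole reads were recovered as the smallest whole numbers in the ratio of the FPKM of a gene across libraries, for 100% of the 10633 genes (tolerance 0.001 reads plus 5e-08 of the count). The fit was also run on simulated data, with the outcome not reported here. Ratios were tested by exact permutation in Python 3.11.15, with pandas 2.3.3, scipy 1.17.1 and matplotlib 3.10.9.

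All 10 members are named, with every called gene of the pathway and clock lists, up to 3 uncalled ones of each by p, and 3 nearest patterns per called member. The members and lists were chosen with earlier results of these data known. The labels do not say whether replicates are separate animals, so the p-values reflect only how these libraries vary, which may be technical. Alternatives were a pseudocount of 0.1, no filter, TPM scale, median-of-ratios and quantile scaling, eBayes without trend, a replicate block, each library left out, and voom on recovered reads.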

Additional observations from a re-analysis of the deposited data

How the results depend on the processing

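The count of 2 lower genes was also 2 with a pseudocount of 0.1, on the TPM scale, after both scalings, without trend and with voom, and 1 with no filter. With 1 library left out it ran from 0 to 3, and the count of higher genes, 0 as reported, from 0 to 1. The Klb difference ran from -0.313 to 0.0108 with 1 library left out, turning sign without knockout replicate 3, the only reversal among the 10 fold changes and 6 ratios under the alternatives run. With the replicate number as a block the lower count stayed at 2, but Cyp7a1 was called at -2.51 (limma, adjusted p = 0.00238) and Fgfr4 was not (0.0724). Over all genes the block gave 280 higher and 122 lower calls, against 564 and 170. Deviations of same-numbered libraries correlated at 0.17, -0.0625 and 0.0966, and not every library correlated best with its own number, so the numbers were not taken as pairs. No filter (22476 genes tested) gave 88 and 58, and among the called genes of the other pathway and clock lists it left those of Abcc3, Cyp2c70 and Stard4, quantile normalization 371 and 204, median-of-ratios scaling 352 and 226, and TPM 916 and 165. Cyp7a1 had the lowest read number of the 10 genes, 110 in knockout replicate 3, but its counting error was small beside the spread between libraries.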

Other observations

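The other cholesterol hydroxylases of the list lay below the filter and were not tested. Cyp46a1, the 24-hydroxylase best known from neurons, measured 0.354, 0.199 and 0.343 FPKM in wild type, against 1.07, 0.870 and 0.737 in knockout. The groups did not overlap, on 16 to 88 reads per library. Ch25h, the 25-hydroxylase, was at 0.0444, 0.0530 and 0.0244 FPKM in wild type, against 0.213, 0.274 and 0 in knockout, on at most 13 reads.

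Some genes of the lists had low values, among them 2 known to be abundant in liver. Apoc2, an FXR target on chromosome 7, measured 1.97 to 4.55 FPKM over the 6 libraries, and 1 or more of its exons overlap exons of Gm44805 in GENCODE. The asialoglycoprotein receptor gene Asgr1 measured 1.53 to 2.64 FPKM, with no overlapping gene. Slc51a, a subunit of a bile acid exporter known mainly from mouse ileum and kidney, was listed at 0 in each library, and its exons overlap those of Pcyt1a. The cause of the low Apoc2 and Asgr1 values was not tested.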
